A study of Mus musculus with 31 samples.

Results

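The adenylyl cyclases examined here were Adcy1 to Adcy9, the 9 genes for the membrane-bound enzymes that make cAMP from ATP. They were chosen by gene symbol, not by expression, and are 9 of the 52636 Ensembl genes in the expression table of caudate putamen (CPu), the dorsal striatum. All 9 were above 0.1 TPM in each of the 31 mice and passed the filter on low values. TPM corrects read numbers for gene length and adds up to nearly the same total in every library, so levels can be set side by side between genes. Between mice they also depend on which other genes share that total, which the median-of-ratios scaling tried below addresses in part.

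Membrane-bound adenylyl cyclases are switched on by stimulatory G proteins (Gs, and in striatum the olfactory form Golf) and switched off, in part, by inhibitory G proteins. The family divides by its other regulators. ADCY1, ADCY3 and ADCY8 are stimulated by calcium and calmodulin, ADCY2, ADCY4 and ADCY7 by G protein beta-gamma subunits, ADCY5 and ADCY6 are inhibited by calcium, and ADCY9 is largely insensitive to forskolin. ADCY5 is known as the main cyclase of striatal projection neurons, where it links the receptors encoded by Drd1 (dopamine) and Adora2a (adenosine), through Golf, to protein kinase A. ADCY1 and ADCY8 are known for their part in cortical and hippocampal plasticity.

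Female mice of 1 line, C57BL/6NTac-Brd1, 8 to 11 weeks old, were either wildtype (WT) or heterozygous for a targeted deletion in Brd1 (Brd1+/-), which encodes a chromatin reader found in histone acetyltransferase complexes. The deletion was made in the germ line, so it was present in all cells and from conception. Mice were administered saline vehicle or the tricyclic antidepressant imipramine (IMN, 10 mg/kg) by subcutaneous injection on each of 2 days, were taken through tail suspension, open field and forced swim tests, and were killed 1 hour after the last. All 4 groups had therefore been injected and stressed, and none was naive. There were 8 WT vehicle, 7 Brd1+/- vehicle, 8 WT IMN and 8 Brd1+/- IMN mice, each giving 1 punch of frozen CPu and 1 RNA library. The number of reads per library is unknown from TPM, so precision rests on the spread between mice.

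Brd1 itself followed the genotype labels. WT vehicle mice held 22.5 ± 2.97 TPM of it (mean ± SD, n = 8), and Brd1+/- vehicle mice 13.4 ± 2.02 TPM (n = 7), and every Brd1+/- mouse lay below the lowest WT mouse (18.3 TPM). With IMN the means were 19.9 ± 2.67 TPM for WT (n = 8) against 12.8 ± 1.04 TPM for Brd1+/- mice (n = 8), again without overlap between the genotypes.

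Several libraries stood apart in the tissue they sampled. Striatal projection neuron markers (10 genes, Drd1, Adora2a and Penk among them) were above 0.1 TPM in every mouse, 10 of 10 in each group. Their summed level was 273 to 9933 TPM in WT vehicle, 7995 to 9463 TPM in Brd1+/- vehicle, 4763 to 8863 TPM in WT IMN and 6550 to 9203 TPM in Brd1+/- IMN mice. In the library labelled WT vehicle mouse 2, Drd1 was 1.37 TPM and Adora2a 1.02 TPM, so the defining markers of striatum were nearly absent from it. Cortical neuron markers (10 genes, led by the glutamate transporter Slc17a7) summed to 11.8 to 1935 TPM in WT vehicle, 19.4 to 231 TPM in Brd1+/- vehicle, 10.7 to 1103 TPM in WT IMN and 14.6 to 380 TPM in Brd1+/- IMN mice. Of these markers 6, 10, 8 and 9, in the same order of groups, were above 0.1 TPM in each mouse, and Emx1 and Slc30a3 were among those at 0 in some WT vehicle mouse. On the mean log2(TPM + 1) of the list, here the cortical marker score, 6 of 8 WT vehicle mice lay above all Brd1+/- vehicle mice and the other two, mice 6 and 8, lay below all of them. On the striatal score 6 of 8 WT vehicle mice lay below all Brd1+/- vehicle mice. WT IMN mice 5 and 8 were the other high ones on the cortical score. The library labelled WT vehicle mouse 7 held 26.8 TPM of 4 Y-linked genes, against at most 0.188 TPM in any other mouse, which goes against its label as female. Levels of Adcy1, Adcy2, Adcy5, Adcy6 and Adcy8 are given with and without mice 2 and 7. So are their differences between genotypes under vehicle and between IMN and vehicle in WT mice. In the interaction this holds for Adcy2 alone, and in order and likeness for some pairs. Relations to marker scores among WT vehicle mice hold both, since 4 mice remain without them. Mean scores of the other lists, WT vehicle against Brd1+/- vehicle, were 5.90 and 5.68 for astrocytes, 7.79 and 7.44 for oligodendrocytes, 4.48 and 4.70 for microglia, 3.68 and 3.83 for endothelium, and 0.61 and 0.77 for choroid plexus. Since these are bulk punches, fewer cells of a type and less RNA per cell cannot be told apart.

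Promoters of 7 of the 9 genes were matched by symbol in RefSeq (GRCm38.p6), 10 promoters in all, each running from 250 bases before to 50 bases after the start of transcription. Those of Adcy1, Adcy2 and Adcy5 are shown, the 3 members with the highest mean TPM in WT vehicle mice. In the other groups Adcy3 ranked above Adcy2. Capitals mark GC boxes (GGGCGG on either strand, the motif of Sp-family factors), overlapping matches included.
Adcy1 promoter: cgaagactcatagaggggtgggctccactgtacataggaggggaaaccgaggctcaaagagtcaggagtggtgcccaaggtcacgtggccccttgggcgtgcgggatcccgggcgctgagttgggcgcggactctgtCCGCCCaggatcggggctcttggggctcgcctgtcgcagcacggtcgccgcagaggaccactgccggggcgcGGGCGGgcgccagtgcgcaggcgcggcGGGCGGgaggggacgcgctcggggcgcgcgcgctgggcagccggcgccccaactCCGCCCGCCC
Adcy2 promoter: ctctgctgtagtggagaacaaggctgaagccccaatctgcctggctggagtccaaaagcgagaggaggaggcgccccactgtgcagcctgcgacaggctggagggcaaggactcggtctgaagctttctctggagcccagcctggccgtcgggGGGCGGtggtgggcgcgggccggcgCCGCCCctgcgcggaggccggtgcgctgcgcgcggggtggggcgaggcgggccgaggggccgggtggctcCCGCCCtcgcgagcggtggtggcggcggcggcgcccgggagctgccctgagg
Adcy5 promoter: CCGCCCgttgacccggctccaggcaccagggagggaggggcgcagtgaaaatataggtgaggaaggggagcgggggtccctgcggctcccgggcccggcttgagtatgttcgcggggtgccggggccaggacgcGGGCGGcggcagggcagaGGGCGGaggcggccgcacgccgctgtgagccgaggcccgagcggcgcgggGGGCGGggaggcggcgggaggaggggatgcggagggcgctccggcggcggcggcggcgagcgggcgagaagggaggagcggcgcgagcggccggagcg
They lie at chr11:7063183-7063482 on the plus strand, chr13:68999492-68999791 on the minus strand and chr16:35154614-35154913 on the plus strand, are each written 5′ to 3′, and were 74%, 75% and 79% G and C, against a median of 52.7% over 32851 mouse promoters of this length. They held 5, 3 and 4 GC boxes, and 35.7% of all promoters held at least 1. The promoters not shown ran from 54.7% (Adcy7) to 78.3% (Adcy9) G and C, with 0 to 5 GC boxes. None of the 10 promoters held the full cAMP response element TGACGTCA, which was found in 1.79% of all promoters, or the TATA box TATAAA, found in 13.6%. These are matches of letters in a window and not measured binding.

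Adcy5 was the most abundant member by group mean in each of the 4 groups. In WT vehicle mice it ranged from 18.6 to 422 TPM with a median of 199.6 TPM. In Brd1+/- vehicle mice it ranged from 366 to 464 TPM (median 397 TPM), in WT IMN mice from 222 to 451 TPM (median 378 TPM) and in Brd1+/- IMN mice from 317 to 468 TPM (median 352 TPM). The other 3 groups thus lay close together while WT vehicle mice spread far more widely, with mice 2, 1 and 5 lowest at 18.6, 72.3 and 123 TPM. Adcy1 and Adcy2 also spread widely among WT vehicle mice, toward higher levels. Adcy1 ranged from 25.5 to 152 TPM (median 83.6 TPM) in WT vehicle and from 25.8 to 38.8 TPM (median 35.0 TPM) in Brd1+/- vehicle mice. Adcy2 ranged from 16.5 to 83.8 TPM (median 56.0 TPM) in WT vehicle and from 17.8 to 23.8 TPM (median 20.7 TPM) in Brd1+/- vehicle mice. For both genes WT vehicle mice 6 and 8 were the lowest of their group, and the same pair were the highest for Adcy5. Without mice 2 and 7, the other 6 WT vehicle mice ranged from 72.3 to 422 TPM for Adcy5 (median 245 TPM), from 25.5 to 152 TPM for Adcy1 (median 77.6 TPM) and from 16.5 to 83.8 TPM for Adcy2 (median 49.8 TPM).

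**Figure D1:**
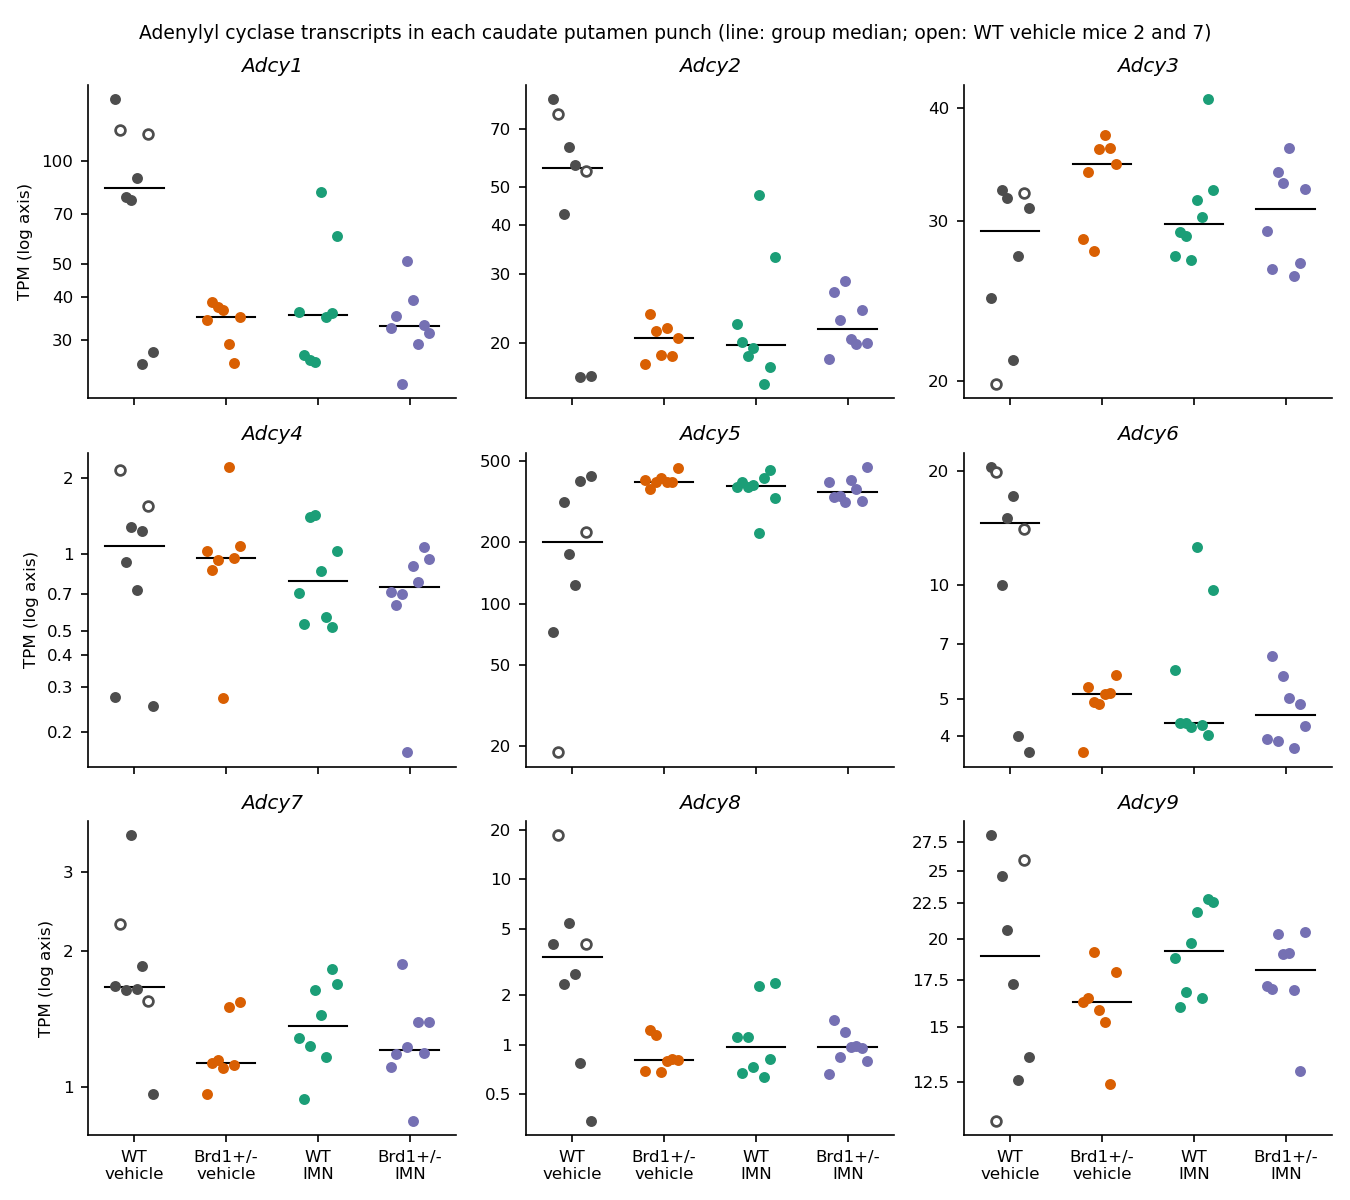
TPM of each adenylyl cyclase in each mouse on log axes, 1 point per mouse in the 4 groups, with the group median as a line and WT vehicle mice 2 and 7 as open points. WT vehicle mice range from 18.6 to 422 TPM for Adcy5 and from 0.346 to 18.5 TPM for Adcy8, and WT IMN mice 5 and 8 lie above the rest of their group for Adcy1, Adcy2, Adcy6 and Adcy8.

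Adcy3, the cyclase of olfactory neurons and primary cilia, had medians of 29.2 TPM (19.8 to 32.5), 34.7 TPM (27.8 to 37.4), 29.7 TPM (27.2 to 40.9) and 30.9 TPM (26.1 to 36.1) in WT vehicle, Brd1+/- vehicle, WT IMN and Brd1+/- IMN mice. Adcy9 followed with means in the same order of 19.2 ± 6.54, 16.2 ± 2.13, 19.4 ± 2.79 and 17.9 ± 2.45 TPM (SD, n = 8, 7, 8 and 8). Adcy6, the second calcium-inhibited form, was at 13.0 ± 6.59, 5.00 ± 0.67, 6.19 ± 3.22 and 4.75 ± 1.00 TPM. Adcy7, known from blood and immune cells, was at 1.91 ± 0.78, 1.22 ± 0.22, 1.40 ± 0.30 and 1.28 ± 0.30 TPM. Adcy8 was at 4.78 ± 5.81, 0.88 ± 0.21, 1.21 ± 0.70 and 0.98 ± 0.24 TPM, and the WT vehicle mean held 1 mouse, mouse 2, at 18.5 TPM. Without mice 2 and 7 that mean was 2.61 ± 1.94 TPM and that of Adcy6 11.7 ± 7.02 TPM (SD, n = 6). Adcy4 was the lowest or near it, at 1.05 ± 0.64, 1.05 ± 0.57, 0.88 ± 0.37 and 0.74 ± 0.27 TPM.

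The order of the members by mean TPM was Adcy5, Adcy1, Adcy3, Adcy2, Adcy9, Adcy6, Adcy7, Adcy8, Adcy4 in both IMN groups. Brd1+/- vehicle mice differed from it in the last pair, Adcy4 above Adcy8. WT vehicle mice had Adcy2 above Adcy3 (exact p = 0.102) and Adcy8 above Adcy7 (exact p = 0.141), pairs that did not differ beyond their spread. Neighbours in the order were compared within mice by two-sided exact sign-flip permutation tests over 32 pairs, in which 8 mice allow a p of 0.00781 at the smallest and 7 mice 0.0156. Adcy5 exceeded Adcy1 by 3.55 ± 0.23 on the log2(TPM + 1) scale in Brd1+/- vehicle mice (higher in 7 of 7, exact p = 0.0156, adjusted p = 0.0294), by 3.22 ± 0.85 in WT IMN and by 3.41 ± 0.41 in Brd1+/- IMN mice (higher in 8 of 8 in each, exact p = 0.00781, adjusted p = 0.0278). In WT vehicle mice the difference was 1.08 ± 2.26 with Adcy5 higher in 6 of 8 mice, and the pair did not differ beyond the spread (exact p = 0.219, adjusted p = 0.269). Without mice 2 and 7 the order of the WT vehicle means was the same, and Adcy5 exceeded Adcy1 by 1.73 ± 1.96 in 5 of 6 mice (exact p = 0.0938, where 6 mice allow 0.0313). Adcy1 and Adcy3 did not differ beyond the spread in Brd1+/- vehicle (exact p = 0.938), WT IMN (exact p = 0.227) or Brd1+/- IMN mice (exact p = 0.313). Adcy9 exceeded Adcy6 with an exact p of 0.0156 or less in the 3 groups other than WT vehicle, where p was 0.0547 (0.0313 without mice 2 and 7). The order among Adcy7, Adcy8 and Adcy4 was not settled by these tests outside WT vehicle, with the smallest exact p at 0.0703. In WT vehicle mice, Adcy7 exceeded Adcy4 in 8 of 8 mice (exact p = 0.00781, adjusted p = 0.0278).

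As a share of the summed TPM of the 9 genes, Adcy5 made up a median of 45.7% in WT vehicle mice (6.39% to 81.8%), 78.3% in Brd1+/- vehicle (75.0% to 79.8%), 78.8% in WT IMN (52.6% to 80.0%) and 76.3% in Brd1+/- IMN mice (69.3% to 80.7%). Adcy1 made up a median of 22.3%, 6.75%, 6.50% and 6.99%, and Adcy2 13.8%, 3.75%, 4.06% and 4.73%, in the same order of groups. The ratio of Adcy5 to Adcy1 was 0.152 in WT vehicle mouse 2 and 15.6 in WT vehicle mouse 6, with medians of 2.08, 11.8, 12.2 and 11.2 in the 4 groups. The summed level differed less, at 424 ± 85.5 TPM (SD, n = 8) in WT vehicle, 517 ± 31.3 TPM (SD, n = 7) in Brd1+/- vehicle, 493 ± 43.2 TPM (SD, n = 8) in WT IMN and 481 ± 51.3 TPM (SD, n = 8) in Brd1+/- IMN mice. With mice 2 and 7 left out the WT vehicle medians were 53.3% for Adcy5, 17.5% for Adcy1 and 12.2% for Adcy2, and that of the ratio was 3.15. These shares and ratios are descriptions and were not tested.

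**Figure D2:**
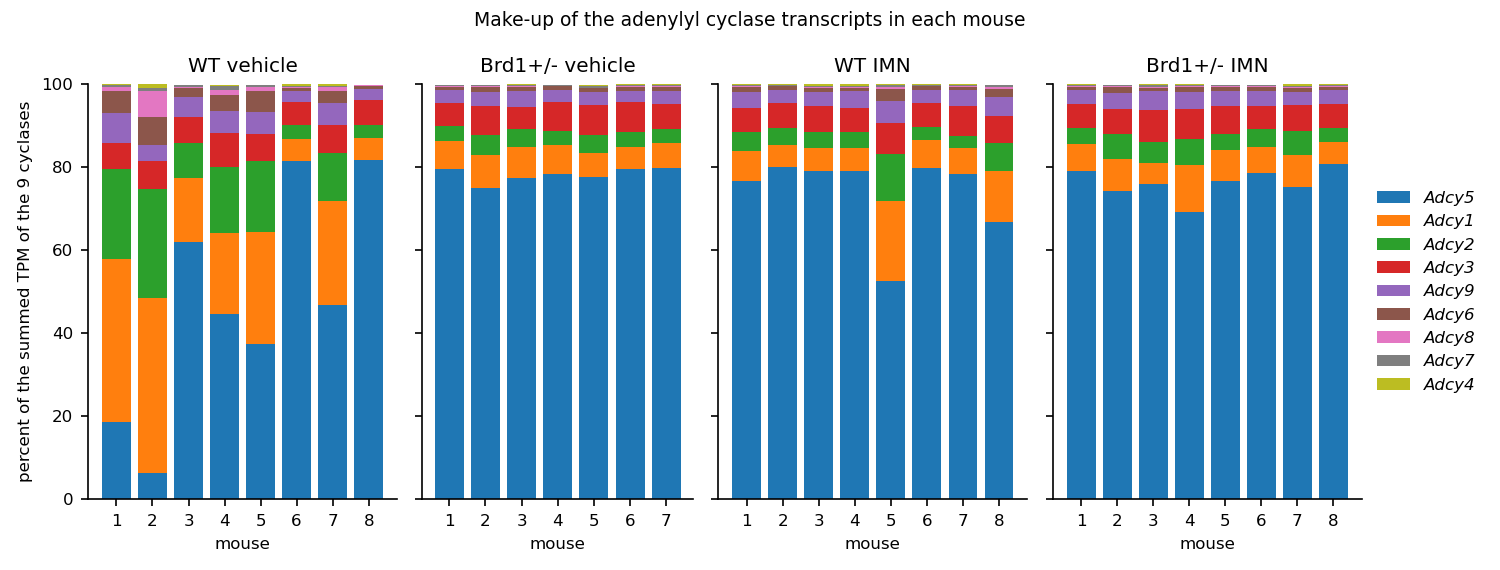
Stacked bars of the percent each cyclase holds in the summed TPM of the 9 genes, 1 bar per mouse in 4 panels by group, on an axis from 0 to 100%. Adcy5 takes a median of 78.3% of the Brd1+/- vehicle bars and 45.7% of the WT vehicle bars, with 6.39% in WT vehicle mouse 2, and the bars of WT vehicle mice 1 to 5 and 7 and of WT IMN mice 5 and 8 hold more Adcy1 and Adcy2.

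The first comparison asked how Brd1+/- mice differ from WT mice after vehicle. Adcy1, Adcy2 and Adcy6 were lower in Brd1+/- mice at p under 0.01, the study's nominal threshold, and no member was higher at that threshold. This is 3 of 9 members, where 13.6% of the 23200 genes tested passed in either direction, 12.1% lower and 1.47% higher. The median log2 fold change was -0.36 over the members and -0.13 over all genes tested. No gene passed a Benjamini-Hochberg FDR of 5%, and 7168 genes had an unadjusted p under 0.05 in limma. Over genes with a mean of at least 1 TPM, Adcy1, Adcy2 and Adcy6 passed that FDR (limma, adjusted p from 0.046 to 0.0488), and with all 4 groups in 1 fit they passed together with Adcy5, Adcy7 and Adcy8 (limma, adjusted p from 0.00936 to 0.0378). That fit uses 1 spread for all groups. The SD of Adcy5 was 68.1% of its mean in WT vehicle mice and 7.44%, 18.6% and 14.2% in Brd1+/- vehicle, WT IMN and Brd1+/- IMN mice. Its errors can thus be too small where WT vehicle mice are compared. Median-of-ratios scaling moved the median of all genes to 0.00 and that of the members to -0.24, and it changed the share of passing genes that were lower from 89.2% to 56.4%.

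Among the calcium-stimulated cyclases, Adcy1 had a log2 fold change of -1.11 ± 0.33 (SE, limma, adjusted p = 0.0586). Its mean in Brd1+/- mice was 39.2% of the WT mean, and 6 of 8 WT mice lay above the whole Brd1+/- group while mouse 6 lay below it. Adcy8 had a larger difference with a wider error, -1.16 ± 0.41 (SE, limma, adjusted p = 0.0809), also with 6 of 8 WT mice above all Brd1+/- mice and mouse 8 below. Adcy3 had the opposite sign, at 0.29 ± 0.12 (SE, limma, adjusted p = 0.114), and 4 of 8 WT mice lay below all Brd1+/- mice. After median-of-ratios scaling the difference of Adcy3 was 0.47 and passed p under 0.01.

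Among the cyclases stimulated by beta-gamma subunits, Adcy2 had a log2 fold change of -1.09 ± 0.32 (SE, limma, adjusted p = 0.0556). For this gene 6 of 8 WT vehicle mice lay above all Brd1+/- vehicle mice and the other two lay below all of them, so the groups differ in mean but not by separation. Adcy7 was at -0.36 ± 0.14 (SE, limma, adjusted p = 0.106), with 7 of 8 WT mice above the Brd1+/- range. Adcy4 was at 0.02 with a 95% interval of -0.42 to 0.46.

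The calcium-inhibited pair had opposite signs. Adcy6 had a log2 fold change of -1.04 ± 0.31 (SE, limma, adjusted p = 0.0589), with a mean in Brd1+/- mice at 38.3% of the WT mean. Adcy5 was at 1.36 ± 0.51 (SE, limma, adjusted p = 0.0926), a mean of 185% of that in WT mice, with 6 of 8 WT mice below all Brd1+/- mice and a difference that missed the threshold. Adcy9 was at -0.17 with a 95% interval of -0.56 to 0.22, and its sign turned under median-of-ratios scaling, to 0.01, which it did for no other member in this comparison.

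These values changed with a marker score in the fit and with mice left out. With the cortical marker score as a covariate 0 of 9 members passed, and the log2 fold changes were -0.36 ± 0.18 for Adcy1, -0.35 ± 0.12 for Adcy2, -0.30 ± 0.13 for Adcy6, -0.35 ± 0.31 for Adcy8 and 0.54 ± 0.48 for Adcy5 (SE, limma, adjusted p from 0.485 to 0.775). With the striatal marker score as a covariate 0 of 9 passed, and Adcy1 was at -0.53 ± 0.30, Adcy2 at -0.52 ± 0.27, Adcy6 at -0.47 ± 0.27, Adcy8 at -0.25 ± 0.24 and Adcy5 at 0.07 ± 0.08 (SE). Without WT vehicle mice 2 and 7 the values were -0.87 ± 0.34 for Adcy1, -0.91 ± 0.33 for Adcy2, -0.86 ± 0.33 for Adcy6, -0.75 ± 0.30 for Adcy8 and 0.95 ± 0.34 for Adcy5 (SE, limma, adjusted p from 0.166 to 0.184), and 0 of 9 passed. Adcy6 lost its call without WT vehicle mouse 1, 2 or 5 or Brd1+/- vehicle mouse 1 (p from 0.01 to 0.0106). Adcy1 lost its call without WT vehicle mouse 7 or Brd1+/- vehicle mouse 6 (p of 0.0101 and 0.0105). Without WT vehicle mouse 6 or mouse 8, Adcy5 passed at 1.55 and 1.57 (limma, adjusted p = 0.0438 and adjusted p = 0.0365) and Adcy8 at -1.34 and -1.40 (limma, adjusted p = 0.0313 and adjusted p = 0.0164). Adcy7 passed without mouse 8 (-0.43, limma, adjusted p = 0.0272). With replicate numbers as a block in the fit more members passed than without it, as given below. The 2 marker scores differ between the groups, and the part of genotype in these differences and the part of tissue makeup cannot be told apart from the design.

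**Figure D3:**
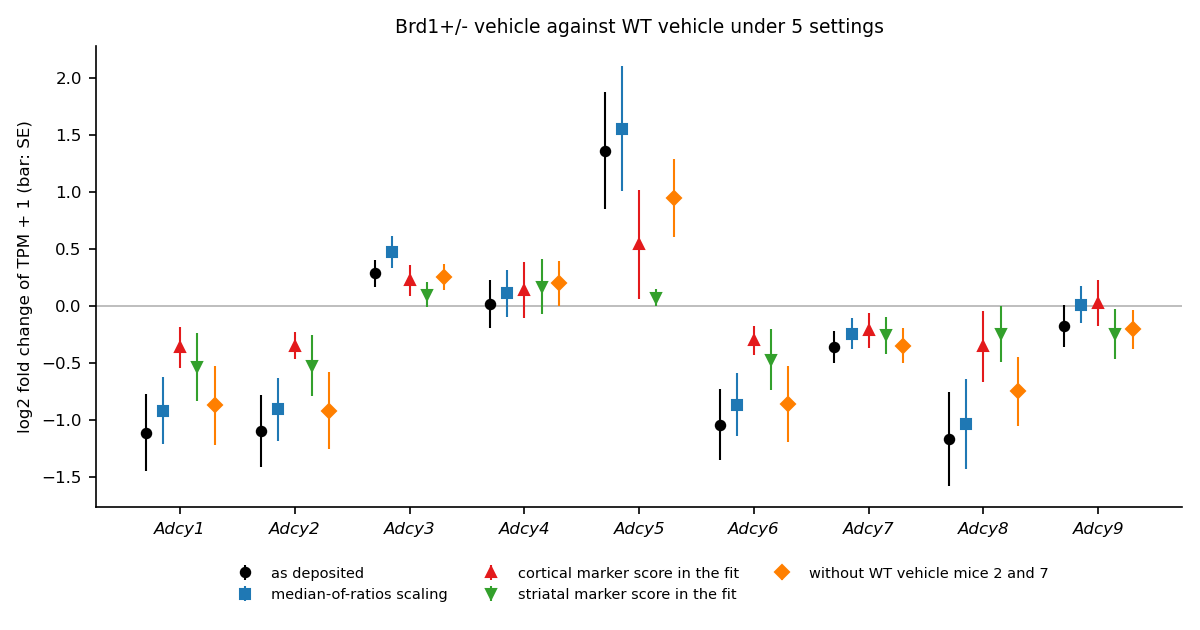
Log2 fold change of TPM + 1 with its standard error for each cyclase in Brd1+/- vehicle against WT vehicle mice, for the deposited values and 4 alternatives marked by color and shape. Adcy5 is at 1.36 as deposited and at 0.07 with the striatal score in the fit, and Adcy1 is at -1.11 as deposited and at -0.36 with the cortical score in the fit.

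The second comparison asked how the genotypes differ under IMN. No member passed p under 0.01 (0 of 9), where 0.703% of 23339 genes did, and no member had an unadjusted p under 0.05 in limma, where 914 genes did. The values lay between -0.24 for Adcy6 (95% interval -0.66 to 0.18) and 0.01 for Adcy5 (-0.24 to 0.27). Adcy1 was at -0.17 with an interval of -0.63 to 0.29 and Adcy2 at -0.02 with an interval of -0.41 to 0.37. Whether the genotype difference itself differs between vehicle and IMN is the interaction. Adcy3 was at -0.02 (-0.21 to 0.17), and the signs of Adcy2 and Adcy3 turned under median-of-ratios scaling, to 0.03 for each. The wide error of Adcy1 and Adcy6 came with WT IMN mice 5 and 8, which were at 81.3 and 60.4 TPM for Adcy1 and 12.6 and 9.72 TPM for Adcy6, above the other WT IMN mice, and which also had the 2 highest cortical scores of their group. Without WT IMN mouse 5, Adcy1 was at -0.02 and Adcy6 at -0.09.

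The third comparison asked what IMN changed in WT mice. It shares the WT vehicle mice with the first and is not independent of it. No member passed p under 0.01 (0 of 9), where 6.95% of 23579 genes did. In limma 5 of 9 members had an unadjusted p under 0.05, as did 5453 of the genes tested. Adcy1 was at -0.94 ± 0.36 (SE, limma, adjusted p = 0.159), Adcy2 at -0.94 ± 0.34 (SE, limma, adjusted p = 0.149), Adcy6 at -0.87 ± 0.34 (SE, limma, adjusted p = 0.161), Adcy8 at -0.98 ± 0.41 (SE, limma, adjusted p = 0.176) and Adcy5 at 1.20 ± 0.49 (SE, limma, adjusted p = 0.171). The groups overlapped for each of them: 5 of 8 WT vehicle mice lay above all WT IMN mice for Adcy2, and 4 of 8 lay below all WT IMN mice for Adcy5. Adcy1, Adcy2 and Adcy6 passed p under 0.01 without WT vehicle mouse 6, without WT vehicle mouse 8 or without WT IMN mouse 5, and Adcy8 passed without WT vehicle mouse 8 (-1.21, limma, adjusted p = 0.0491). Without WT vehicle mice 2 and 7 the values were -0.71 for Adcy1, -0.76 for Adcy2, -0.69 for Adcy6, -0.56 for Adcy8 and 0.79 for Adcy5, and none of the 9 passed. The cortical marker score was lower by 1.89 in WT IMN mice, with 5 of 8 WT vehicle mice above all of them. The striatal score was higher by 1.43. With the cortical covariate the values were -0.19 ± 0.15 for Adcy1, -0.22 ± 0.12 for Adcy2, -0.14 ± 0.11 for Adcy6, -0.26 ± 0.30 for Adcy8 and 0.52 ± 0.45 for Adcy5 (SE). With the striatal covariate Adcy1, Adcy2 and Adcy5 were at -0.39 ± 0.33, -0.38 ± 0.29 and 0.05 ± 0.07 (SE). With all 4 groups in 1 fit Adcy1, Adcy2, Adcy5, Adcy6 and Adcy8 passed p under 0.01 (limma, adjusted p from 0.0302 to 0.046). The limit of that fit given for the first comparison holds here too. Adcy3 and Adcy9 were at 0.18 and 0.07, and at 0.30 and 0.19 under median-of-ratios scaling, without passing p under 0.01.

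The fourth comparison asked what IMN changed in Brd1+/- mice, and it holds no WT vehicle mouse. No member passed p under 0.01 (0 of 9), where 1.83% of 23020 genes did, and no member had an unadjusted p under 0.05 in limma, where 1633 genes did. Adcy5 was at -0.15 (95% interval -0.32 to 0.02), Adcy1 at -0.01 (-0.29 to 0.28), Adcy2 at 0.14 (-0.07 to 0.35), Adcy6 at -0.07 (-0.31 to 0.17) and Adcy8 at 0.07 (-0.12 to 0.26). Adcy3, Adcy7 and Adcy9 were at -0.13, 0.03 and 0.13, and Adcy4 was at -0.21 (-0.54 to 0.12). With the striatal covariate the signs of Adcy2, Adcy4, Adcy5 and Adcy8 turned, to -0.11, 0.057, 0.065 and -0.0997.

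**Figure D4:**
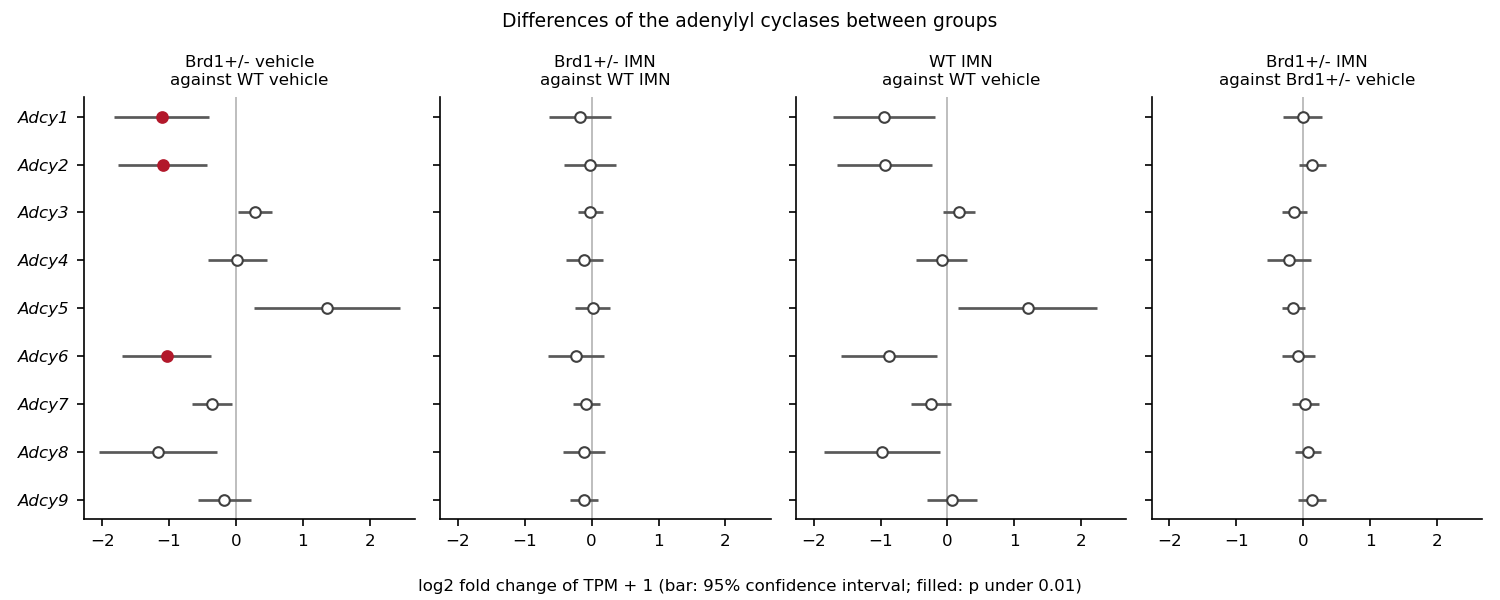
Log2 fold change of TPM + 1 with 95% confidence intervals for the 9 cyclases in 4 comparisons, filled where p was under 0.01. Filled points are found in Brd1+/- vehicle against WT vehicle alone, for Adcy1 (-1.11), Adcy2 (-1.09) and Adcy6 (-1.04), and both comparisons that hold WT vehicle mice have the wider intervals.

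The interaction asked whether the change from vehicle to IMN differed between the genotypes, and it uses the same WT vehicle mice again. One member, Adcy2, passed p under 0.01 (1 of 9), at 1.08 ± 0.37 (SE, limma, adjusted p = 0.261), where 3.74% of 25394 genes passed in either direction and 2.97% in the higher one. Adcy2 went from a mean of 51.4 TPM under vehicle to 24.3 TPM under IMN in WT mice, and from 20.4 to 22.7 TPM in Brd1+/- mice. A further 5 members had an unadjusted p under 0.05: Adcy1 at 0.94, Adcy8 at 1.05, Adcy6 at 0.80, Adcy3 at -0.31 and Adcy5 at -1.35 (limma, p from 0.0173 to 0.0465). Of the 25394 genes, 4119 had an unadjusted p under 0.05 in limma. The call for Adcy2 was lost, with p from 0.0105 to 0.0146, on leaving out any 1 of 16 of the 31 mice, which were WT vehicle mice 1, 2, 4, 5 and 7, Brd1+/- vehicle mice 1, 4 and 6, WT IMN mice 2, 3, 4, 6 and 7 and Brd1+/- IMN mice 2, 4 and 7. Adcy5 passed without WT vehicle mouse 3, 6 or 8, and Adcy1, Adcy6 and Adcy8 passed without WT vehicle mouse 6 or mouse 8. Without WT vehicle mice 2 and 7, Adcy2 was at 0.90 and 0 of 9 passed, and with the striatal covariate it was at 0.45 ± 0.30 (SE) and 0 of 9 passed. It kept its call with the cortical covariate, at 0.46 ± 0.16 (SE, limma, adjusted p = 0.843).

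The members were next set against the cortical marker score within groups, by two-sided exact permutation of pairings. Scores of WT vehicle mice lay in separate clusters, 6 mice from 4.74 to 5.84 and mice 6 and 8 at 0.83 and 0.94, and those of WT IMN mice into 6 from 0.86 to 2.93 and mice 5 and 8 at 4.34 and 4.93, so relations were computed within the 6. Adcy6 had the highest r in each: 0.91 in WT vehicle (exact p = 0.0167, adjusted p = 0.15 over 18 relations, rho = 0.71, exact p = 0.136, r = 0.63 without the 2 mice farthest from the median) and 0.86 in WT IMN mice (exact p = 0.0139, adjusted p = 0.15, rho = 0.77, exact p = 0.103, r = 0.50 without the 2 mice farthest). None of the 18 relations passed an adjusted p of 0.05. In Brd1+/- IMN mice, over 8 mice without such a gap, Adcy8 had r = 0.81 (exact p = 0.00962, adjusted p = 0.0481 over 72 relations, rho = 0.79, exact p = 0.0279, r = 0.63 without the 2 mice farthest) and Adcy6 r = 0.79 (exact p = 0.0257, adjusted p = 0.084, rho = 0.67, exact p = 0.0831, r = 0.81 without the 2 mice farthest). Adcy2 had the same r of 0.79 there (exact p = 0.0274, adjusted p = 0.0857, rho = 0.86, exact p = 0.0107, r = 0.63 without the 2 mice farthest). The 72 relations hold those over all WT mice, whose smaller p values lower the adjusted p of Adcy8. In Brd1+/- vehicle mice r was 0.71 for Adcy8 (exact p = 0.0643, adjusted p = 0.147, rho = 0.75, exact p = 0.0663, r = 0.95 without the 2 mice farthest). It was 0.71 for Adcy2 (exact p = 0.0655, adjusted p = 0.147, rho = 0.82, exact p = 0.0341, r = 0.85 without them). For Adcy6 it was 0.65 (exact p = 0.142, adjusted p = 0.283, rho = 0.32, exact p = 0.498, r = 0.61 without them). For Adcy1, also called under vehicle, it was 0.06 (exact p = 0.905, adjusted p = 0.96, rho = 0.46, exact p = 0.302, r = 0.49 without them). None of these passed after adjustment. Adcy1 had r = 0.65 in Brd1+/- IMN mice (exact p = 0.0716, adjusted p = 0.156, rho = 0.69, exact p = 0.0694, r = 0.86 without the 2 mice farthest). Within the 6 WT vehicle mice it had r = 0.48 (exact p = 0.361, adjusted p = 0.5, r = -0.25 without the 2 mice farthest). Adcy5 had r = -0.57 in Brd1+/- vehicle (exact p = 0.184, adjusted p = 0.358, rho = -0.86, exact p = 0.0238, r = -0.95 without the 2 mice farthest) and r = -0.69 in Brd1+/- IMN mice (exact p = 0.0574, adjusted p = 0.147, rho = -0.79, exact p = 0.0279, r = -0.37 without the 2 mice farthest). Against the striatal marker score WT mice, with mice far from the others on that score too, were left out. Their relations still count among the 72, and their smaller p values lower the adjusted p given here. An adjustment over Brd1+/- relations alone was not made. Over the 72, 3 striatal relations in Brd1+/- mice had an adjusted p under 0.05. In Brd1+/- IMN mice these were Adcy5 (r = 0.83, exact p = 0.0127, adjusted p = 0.0481, rho = 0.81, exact p = 0.0218, r = 0.85 without the 2 mice farthest) and Adcy2 (r = -0.83, exact p = 0.0125, adjusted p = 0.0481, rho = -0.76, exact p = 0.0368, r = -0.59 without the 2 mice farthest). In Brd1+/- vehicle mice it was Adcy1 (r = -0.89, exact p = 0.0127, adjusted p = 0.0481, rho = -0.64, exact p = 0.139), which rests on mice 5 and 6, without which r was -0.05. The values of Adcy5 and Adcy2 in Brd1+/- vehicle mice did not pass (r = 0.08, exact p = 0.861, rho = 0.18, exact p = 0.713, and r = -0.10, exact p = 0.828, rho = 0.00, exact p = 1, with r = 0.70 and r = 0.31 without the 2 mice farthest). Adcy6 had r = 0.50 there (exact p = 0.23, adjusted p = 0.418, r = 0.85 without the 2 mice farthest) and r = -0.48 in Brd1+/- IMN mice (exact p = 0.223, adjusted p = 0.418, r = -0.16 without them).

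**Figure D5:**
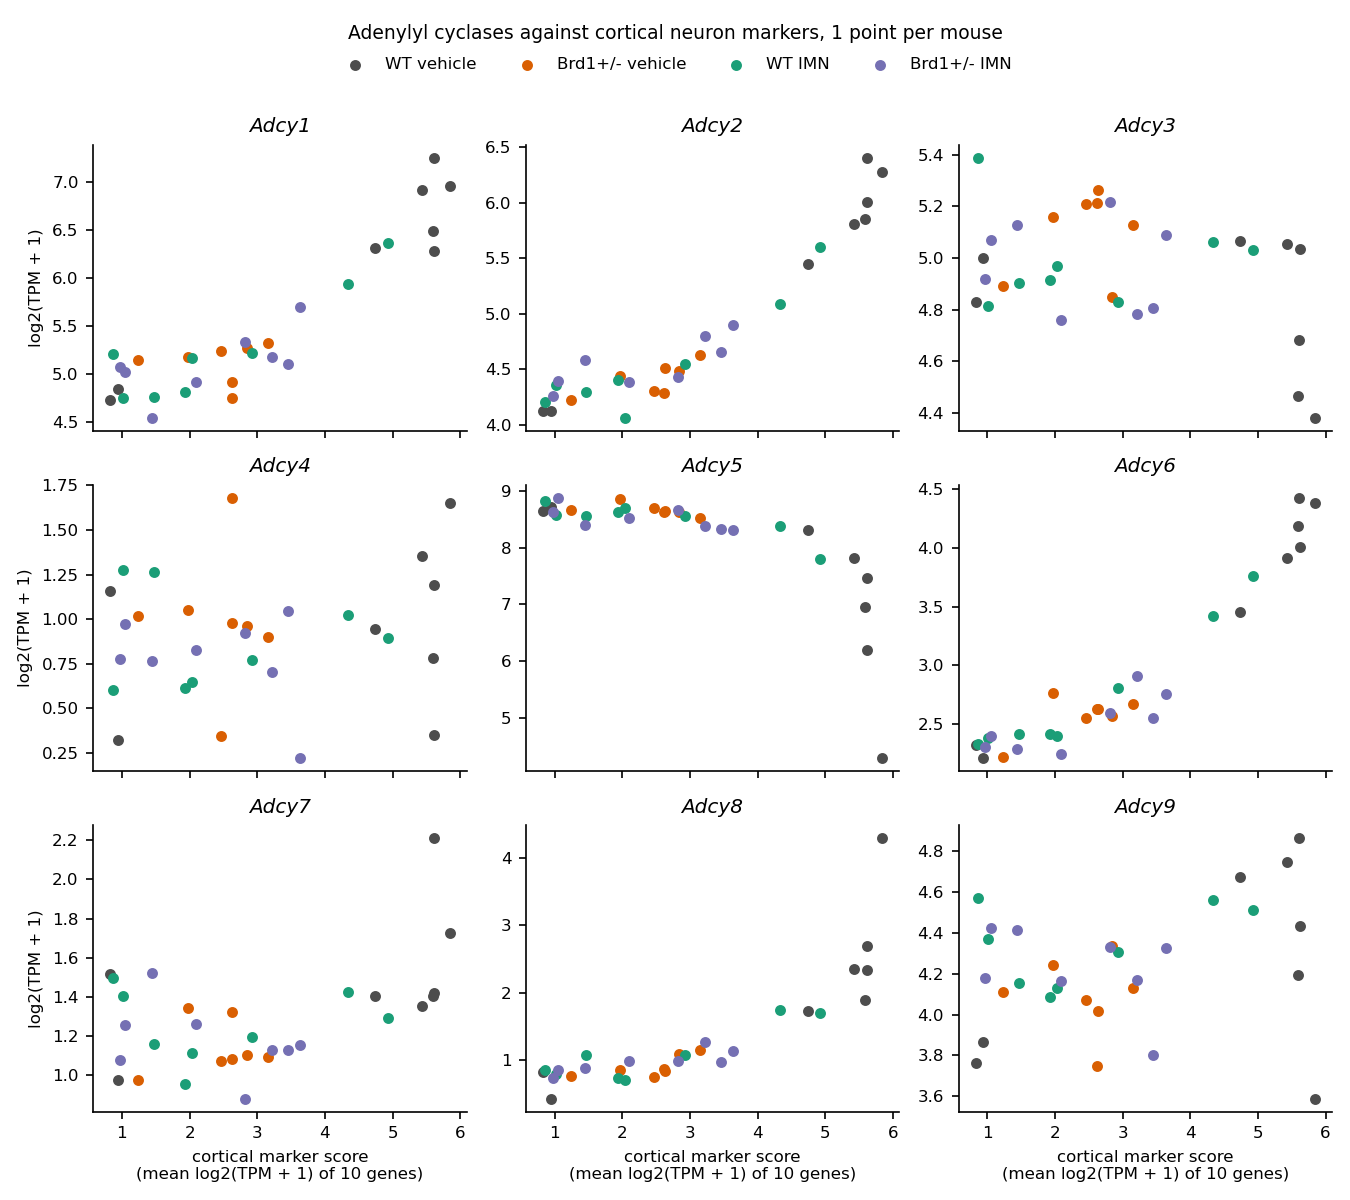
Log2(TPM + 1) of each cyclase against the cortical marker score (mean log2(TPM + 1) of 10 genes), 1 point per mouse, colored by group. Mice with scores above 4.3, which are 6 WT vehicle and 2 WT IMN mice, have the highest Adcy1, Adcy2, Adcy6 and Adcy8 and, for most of them, the lowest Adcy5.

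The genes most like each member over the 31 mice, by Pearson's r of log2(TPM + 1) after subtracting the group means and among 17390 genes with a mean of at least 1 TPM, are given as a description. All points share libraries and tissue makeup with each other. Adcy5 ran with Pde1b, a calmodulin-dependent phosphodiesterase (r = 0.99), Gnal, the alpha subunit of Golf (r = 0.99), and Rgs9, a striatal regulator of G protein signaling that is also on the striatal marker list (r = 0.99). Adcy2 ran with the kinases Pak1 (r = 0.98) and Map4k3 (r = 0.97) and with Adcy6 (r = 0.97). Adcy6 ran with the potassium channel gene Kcnk3 (r = 0.97) and Syt13 (r = 0.97), Adcy1 with the lipid kinase gene Pip4k2c (r = 0.95), Adcy8 with Cds1 (r = 0.96) and Adcy9 with the ubiquitin ligase gene Nedd4 (r = 0.93). Adcy3 and Adcy7 had no gene as close, and were nearest to the postsynaptic scaffold gene Dlgap3 (r = 0.73) and the coatomer gene Copg1 (r = 0.76). Adcy4 had a mean under 1 TPM and was not compared. Among the members themselves, r was 0.91 for Adcy1 and Adcy6, 0.90 for Adcy1 and Adcy2, -0.87 for Adcy5 and Adcy8, and 0.55 for Adcy3 and Adcy5. Over 29 mice, leaving out WT vehicle mice 2 and 7, r was 0.99 for Adcy5 and Pde1b, 0.98 for Adcy2 and Pak1, 0.93 for Adcy8 and Cds1, 0.69 for Adcy3 and Dlgap3, -0.76 for Adcy5 and Adcy8 and 0.38 for Adcy3 and Adcy5.

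The rest of the cAMP pathway was covered by a list of 70 genes, from receptors and G proteins to protein kinase A and phosphodiesterases. In Brd1+/- vehicle against WT vehicle mice 13 of the 68 tested were lower and 4 higher at p under 0.01, where 12.1% of all genes were lower and 1.47% higher. Of the G proteins, Gnas, the alpha subunit of Gs, was lower (-1.29 ± 0.29 SE, limma, adjusted p = 0.0556), as was Gnaz, an inhibitory alpha subunit (-0.55 ± 0.13 SE, limma, adjusted p = 0.0556). Prkar1b, a regulatory subunit of protein kinase A, was lower (-1.19 ± 0.30 SE, limma, adjusted p = 0.0556). The higher genes included Ric8b, a chaperone of Golf and Gs (0.72 ± 0.22 SE, limma, adjusted p = 0.0586), Chrm4, the muscarinic M4 receptor (0.78 ± 0.25 SE, limma, adjusted p = 0.0648), and Arpp19, a protein kinase A substrate (0.48 ± 0.15 SE, limma, adjusted p = 0.0658). Median-of-ratios scaling turned the split to 7 lower and 11 higher, the cortical covariate left 4 and 0, the striatal covariate 1 and 0, and leaving out WT vehicle mice 2 and 7 left 7 and 0. With single mice left out, the lower genes numbered 9 (without WT vehicle mouse 4) to 18 (without mouse 8) and the higher ones 1 (without mouse 1) to 13 (without mouse 6).

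Under IMN, 0 of 68 pathway genes passed p under 0.01 between the genotypes, where 0.703% of all genes did. In WT IMN against WT vehicle mice 9 of 69 were lower and 3 higher (6.95% of all genes in either direction), among them the protein kinase A catalytic subunit gene Prkaca (-0.36 ± 0.10 SE, limma, adjusted p = 0.141), Pde4a (-0.77 ± 0.23 SE, limma, adjusted p = 0.141) and the phosphodiesterase Pde1c, which was higher (1.08 ± 0.24 SE, limma, adjusted p = 0.141). Without WT vehicle mice 2 and 7 the counts were 2 lower and 3 higher, and with single mice left out 3 to 15 were lower and 1 to 10 higher, the most without WT vehicle mice 8 and 6. The lower and higher genes numbered 7 and 5 under median-of-ratios scaling, 1 and 1 with the cortical covariate and 0 and 1 with the striatal covariate. In Brd1+/- mice IMN left 4 of 68 lower and 0 higher (1.83% of all genes in either direction), with Ric8b at -0.23 ± 0.07 (SE, limma, adjusted p = 0.408), the calmodulin gene Calm2 at -0.20 ± 0.06 (SE, limma, adjusted p = 0.497) and Drd1 at -0.19 ± 0.06 (SE, limma, adjusted p = 0.516), and 2 were lower under median-of-ratios scaling, 6 with the cortical covariate and 0 (with 1 higher) with the striatal covariate. The striatal marker score, whose list holds Drd1, was lower by 0.17 in Brd1+/- IMN than in Brd1+/- vehicle mice, and 4 of 7 vehicle mice lay above all IMN mice. The lower pathway genes numbered 1 without Brd1+/- IMN mouse 2 and 6 without Brd1+/- IMN mouse 1. In the interaction 5 of 69 were lower and 2 higher (3.74% of all genes in either direction), with Gnas at 1.42 ± 0.40 (SE, limma, adjusted p = 0.261) and Arpp19 at -0.55 ± 0.17 (SE, limma, adjusted p = 0.261), and 4 lower and 1 higher without WT vehicle mice 2 and 7. With single mice left out these counts ranged from 1 to 13 and from 1 to 11, both highest without WT vehicle mouse 8. The lower and higher genes numbered 7 and 2 under median-of-ratios scaling, 0 and 2 with the cortical covariate and 0 and 0 with the striatal covariate.

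The members lie on 7 chromosomes, and 2 of them share chromosome 15 with Brd1: Adcy6 at 9.9 Mb and Adcy8 at 23.99 Mb from it on GRCm38. Adcy6 (chr15:98589973-98610076), Adcy2 (chr13:68620043-68999541) and Adcy3 (chr12:4133103-4213525) overlap exons of Gm29331, Gm35161 and Cenpo on the opposite strand, and strandedness of the libraries is not given in the sources used here, so reads of these pairs cannot be told apart.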

How the data were processed

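RNA from 1 CPu punch per mouse was sequenced by the authors on a BGISEQ-500 instrument, single-end. The submitters' processing notes name FastQC, Trimmomatic, HISAT2 2.1.0, StringTie 1.3.4 and GRCm38, and per the study's methods HISAT2 did the alignment and StringTie the quantification. The authors deposited TPM for 52636 Ensembl genes in 31 mice, summing to between 999787 and 999918 per mouse, with no scaling between mice. Read depth is unknown from TPM, so no counting error is given, and the count test used in the study was not run.

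Groups and mouse numbers came from the labels. The members and gene lists were chosen with earlier results of these data known. Each pair of groups was fitted alone, and the interaction over all mice, with limma 3.58.1 (R 4.3.3) on log2(TPM + 1) with a trended prior, over genes above 0.1 TPM in at least 7 mice. Tests were two-sided, passed at p under 0.01 and, separately, at a Benjamini-Hochberg FDR of 5%. Fold changes are on this scale and understate those of low genes. The fit was tested on simulated data. Named genes were the members, Brd1, up to 3 pathway genes per direction with the smallest p under 0.01, and the 3 genes most like each member. Marker scores are mean log2(TPM + 1) of 7 cell type lists. Alternatives were a pseudocount of 0.1, a mean of at least 1 TPM, no filter, median-of-ratios scaling, all 4 groups in 1 fit, marker covariates, a replicate block and each mouse left out. Leaving out WT vehicle mice 2 and 7 together (in levels, order and likeness too), the clusters of marker scores and the alternatives for the pathway list were chosen after seeing the data. Symbols and positions are from GENCODE M21 on GRCm38, promoters from RefSeq. Python 3.11.15 with scipy 1.17.1 was used for permutation tests.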

Additional observations from a re-analysis of the deposited data

Results flagged for a closer look

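Each member was screened in each group for a mouse far from the others, by the gap to its neighbor over the range of the group. Gap and range were taken on the log2(TPM + 1) scale, not on TPM. Of 36 pairs of member and group 5 stood out, where chance gives about 1 in 20. The pairs are not independent, since some members run together across mice. Adcy3 in WT IMN mice had its highest value in mouse 7 (40.9 TPM, gap 0.568 of the range). Adcy5 in WT IMN mice had its lowest value in mouse 5 (222 TPM, gap 0.561), a mouse with the highest cortical marker score of its group. Adcy4 had its lowest value in Brd1+/- IMN mouse 4 (0.166 TPM, gap 0.586) and Adcy9 in Brd1+/- IMN mouse 7 (13.0 TPM, gap 0.582). Adcy6 in Brd1+/- vehicle mice was lowest in mouse 1 (3.64 TPM, gap 0.617).

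In the test of the interaction Adcy2 passed p under 0.01, at 1.08 on the log2 scale, and did not pass after adjustment (limma, adjusted p = 0.261). That call was lost on leaving out any 1 of 16 of the 31 mice, without WT vehicle mice 2 and 7, and with the striatal covariate, and it was kept with the cortical covariate (0.46).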

How the results depend on the processing

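Over 373 values of a member under an alternative, mice left out singly not included, 331 kept their direction and side of the threshold, 11 lost and 11 gained a call and 20 turned in sign. For vehicle, the members and genes called at p under 0.01 (3 and 3153 as reported) were 6 and 5005 with all 4 groups in 1 fit, 0 and 472 with the cortical covariate, 0 and 298 with the striatal covariate, and 0 and 1317 without WT vehicle mice 2 and 7. For IMN against vehicle in WT mice (0 and 1639) they were 5 and 3424 with all groups in 1 fit, and the genes were 336 and 287 with the cortical and striatal covariates and 624 without mice 2 and 7. For the interaction (1 and 951) the genes were 257 with the cortical covariate, with 0 members and 130 genes for the striatal one, and 0 and 408 without mice 2 and 7. Between the genotypes under IMN a mean of at least 1 TPM gave 97 genes in place of 164, and in Brd1+/- mice the striatal covariate gave 226 in place of 422. Of the passing genes 73.2%, 80.6%, 52.6% and 20.8% were lower in genotype under IMN, IMN in WT, IMN in Brd1+/- mice and the interaction, and 55.7%, 52.0%, 54.4% and 48.9% after median-of-ratios scaling.

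The values that turned in sign lay between -0.21 and 0.14 as reported. Under median-of-ratios scaling these were Adcy9 under vehicle (0.012) and in the interaction (-0.072), and Adcy2 and Adcy3 between genotypes under IMN (0.026 and 0.025). With the cortical covariate they were Adcy9 under vehicle (0.028) and in the interaction (-0.054), Adcy2 (0.0088) and Adcy5 (-0.0021) under IMN, Adcy4 for IMN in WT (0.0028) and Adcy1 for IMN in Brd1+/- mice (0.0049). With the striatal covariate they were Adcy2 (0.014) and Adcy5 (-0.0066) under IMN, Adcy4 for IMN in WT (0.053), and Adcy2 (-0.11), Adcy4 (0.057), Adcy5 (0.065) and Adcy8 (-0.0997) for IMN in Brd1+/- mice. Without WT vehicle mice 2 and 7, Adcy4 for IMN in WT turned to 0.094.

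Deviations of mice with the same replicate number had r from -0.41 to 0.43, with 3 of 7 numbers at most above 0.1 in any comparison. For IMN in Brd1+/- mice, 3 of 7 mice were most like the mouse with their own number, and 0 were in the other comparisons. These correlations cannot exclude a pairing by litter or run, and the reported fits pair no mice. With the replicate block 5 members were called under vehicle, Adcy4 under vehicle turned to -0.071 and Adcy1 for IMN in Brd1+/- mice to 0.0049.

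With each mouse left out in turn, members called ranged from 2 to 6 under vehicle, 0 to 4 for IMN in WT and 0 to 5 for the interaction. Genes called ranged from 2036 to 5154 under vehicle (lowest without WT vehicle mouse 5, highest without mouse 8), 127 to 252 between genotypes under IMN (without WT IMN mice 8 and 2), 905 to 3576 for IMN in WT (without WT vehicle mice 5 and 8) and 546 to 2571 for the interaction (without WT vehicle mice 1 and 8). Log2 fold changes that turned ranged from -0.093 to 0.129 for Adcy4 under vehicle, -0.0899 to 0.13 for Adcy2, -0.053 to 0.039 for Adcy3 and -0.086 to 0.0597 for Adcy5 under IMN, -0.175 to 0.014 for Adcy4 and -0.026 to 0.156 for Adcy9 for IMN in WT, -0.092 to 0.073 for Adcy1 and -0.015 to 0.076 for Adcy7 for IMN in Brd1+/- mice, and -0.024 to 0.158 for Adcy9 in the interaction. The order of the members was the same on leaving out each of 8 mice in WT vehicle, WT IMN and Brd1+/- IMN, and in 3 of 7 fits in Brd1+/- vehicle mice. The cause of these shifts was not tested. Adcy4, Adcy7 and, outside WT vehicle, Adcy8 lay near 1 TPM, where the pseudocount compresses fold changes.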

Other observations

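The soluble cyclase Adcy10, which answers to bicarbonate and calcium and not to G proteins, lay under the filter on low values in most mice and was above 0.1 TPM in 12 of 31. Its median was 0.199 TPM in WT vehicle, 0.0371 TPM in Brd1+/- vehicle, 0.0954 TPM in WT IMN and 0.0836 TPM in Brd1+/- IMN mice. The highest value, 2.03 TPM, was in WT vehicle mouse 2, the library nearly lacking striatal markers.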
